A study of Mus musculus with 20 samples.

Results

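A set of 10 genes of the glucocorticoid response was followed across 20 hippocampal RNA-seq libraries: the receptors Nr3c1 and Nr3c2, and the response genes Fkbp5, Tsc22d3, Sgk1, Zbtb16, Errfi1, Cdkn1a, Pdk4 and Plin4. They were chosen by name as glucocorticoid receptor and target genes, 10 of 49671 genes in the count tables, and all 10 were among the 18427 genes tested. The 10 genes and the other lists below were chosen with earlier results of these data known, so counts over them are not independent support. Each library came from 1 hippocampus of an adult male wild-type mouse aged 10 to 12 weeks, with 5 mice in each of 4 groups. Every group was given antibody injections into the peritoneum. Control mice had no tumour and received isotype-matched antibody, and ICI mice had no tumour and received a pair of immune checkpoint inhibitors. The inhibitors were anti-CTLA-4 at 1 mg per dose, 3 times a week, and anti-PD-1 at 200 µg per dose, 2 times a week. Melanoma mice carried D4M-3A.UV2 cells, a single syngeneic mouse melanoma line injected into the skin on both sides (500000 cells), and received isotype antibody after 1 week of engraftment. Melanoma plus ICI mice carried the same cells and received the inhibitors for 3 weeks. Brains were collected 72 hours after the last injection in all groups. The strain is not given in the sources used here.

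Glucocorticoids, corticosterone in mice, are released by the adrenal gland under control of the hypothalamus and pituitary and act on cells through a pair of nuclear receptors. Nr3c1 encodes the glucocorticoid receptor, which is occupied mainly at high hormone levels. Nr3c2 encodes the mineralocorticoid receptor, which has a higher affinity for corticosterone and is abundant in hippocampal neurons. Hormone-bound receptors enter the nucleus and bind palindromic response elements near target genes, and the hippocampus takes part in the feedback that limits further hormone release.

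Each library held between 21990624 and 25735149 counts. Values are counts per 1000000 (CPM) of the scaled library size, and group values are mean ± SD with n = 5 mice. Markers of the hippocampal fields and of neighbouring tissues were detected in every library, with 0 of 70 markers at a count of 0 in any of them. Their amounts differed between libraries: the dentate gyrus score, a mean log2 CPM over 5 markers, ran from 2.12 to 6.45 and the striatum score from 2.15 to 6.44. The striatum score was above 5 in melanoma 1, 3 and 5 and in melanoma plus ICI 3, and at most 3.18 in the other 16 libraries. The first principal component set control 4 and melanoma plus ICI 1 apart, at -71.4 and -61.5. Library names carry numbers of unstated meaning that do not interleave between groups, apart from the number 64, which 1 ICI library and 1 melanoma plus ICI library share, so the groups and any batch tied to those numbers cannot be told apart. In RNA from whole tissue, a change in the number of cells of a type and a change in RNA per cell cannot be told apart.

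Set on a scale per length (CPM per 1000 bases of the deposited gene length, a rate like FPKM), the 10 genes spanned more than an order of magnitude. Over the 20 libraries, Nr3c2 had the highest median at 20.01, followed by Zbtb16 at 17.98, Sgk1 at 15.4 and Tsc22d3 at 13.7. Errfi1 at 11.4, Nr3c1 at 10.98 and Fkbp5 at 10.5 lay close together, and the means of Errfi1 (11.3 ± 1.93, SD, n = 20) and Nr3c1 (11.1 ± 1.28) differed by less than their spread. Cdkn1a at 3.92, Pdk4 at 3.17 and Plin4 at 1.43 were the lowest. The genes also differed in how much they varied between mice: the highest library was 1.58-fold above the lowest for Nr3c1, 6.19-fold for Sgk1 and 24.6-fold for Plin4.

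The receptors came first, and neither passed an adjusted p of 0.05 in any contrast. Nr3c1 (chromosome 18, 39410545 to 39491301) was the steadiest of the 10 genes, with control mice at 82.5 ± 8.89 CPM, ICI mice at 82.1 ± 5.77, melanoma mice at 78.3 ± 8.002 and melanoma plus ICI mice at 86.8 ± 14.3. The groups overlapped in every contrast, and the largest difference between a pair of groups, melanoma plus ICI against melanoma, was a log2 fold change of 0.15 (SE 0.10, edgeR quasi-likelihood test, unadjusted p = 0.172). With the oligodendrocyte score (a mean log2 CPM over 6 markers) as a covariate, an alternative added after seeing the data, it was 0.25 (edgeR, unadjusted p = 0.00912, adjusted p = 0.680). Without melanoma plus ICI 3 it was 0.07 (edgeR, unadjusted p = 0.514), and 0 of 20 fits with 1 library left out had an unadjusted p under 0.05. Its highest library was melanoma plus ICI 3 at 107 CPM and its lowest was melanoma 4 at 67.9 CPM. Of the variance of Nr3c1 on the log2 scale, 9.90% lay between groups, against a median of 14.5% over all tested genes.

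Nr3c2 (chromosome 8, 76899442 to 77245012) varied widely inside every group. Control libraries stood at 76.6, 228, 156, 107 and 133 CPM, ICI libraries at 143, 166, 223, 199 and 85.6, melanoma libraries at 135, 143, 77.8, 172 and 101, and melanoma plus ICI libraries at 86.9, 126, 39.1, 122 and 121. All 4 groups overlapped, and the lowest library was melanoma plus ICI 3. Control mice averaged 140.2 ± 57.3 CPM, ICI mice 163 ± 53.1, melanoma mice 126 ± 37.0 and melanoma plus ICI mice 98.9 ± 36.9. Melanoma plus ICI was below ICI by a log2 fold change of -0.72 (SE 0.32, edgeR, unadjusted p = 0.0363, adjusted p = 0.570), which did not pass the threshold. Nr3c2 followed the dentate gyrus markers more closely than any other marker score (Pearson r = 0.92 over 20 libraries), and ICI mice had a dentate gyrus score of 5.34 ± 1.03 against 3.78 ± 0.95 for melanoma plus ICI mice. With 4 tissue scores as covariates (choroid plexus, dentate gyrus, striatum and meninges), the Nr3c2 log2 fold change was -0.09 (unadjusted p = 0.627), and without melanoma plus ICI 3 it was -0.51 (edgeR, unadjusted p = 0.0959). Of the 20 fits with 1 library left out, 15 kept an unadjusted p under 0.05. The 4 tissue scores as covariates turned the Nr3c2 melanoma against control value from -0.16 (edgeR, unadjusted p = 0.628) to 0.42 (edgeR, unadjusted p = 0.0257, adjusted p = 0.703).

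**Figure D1:**
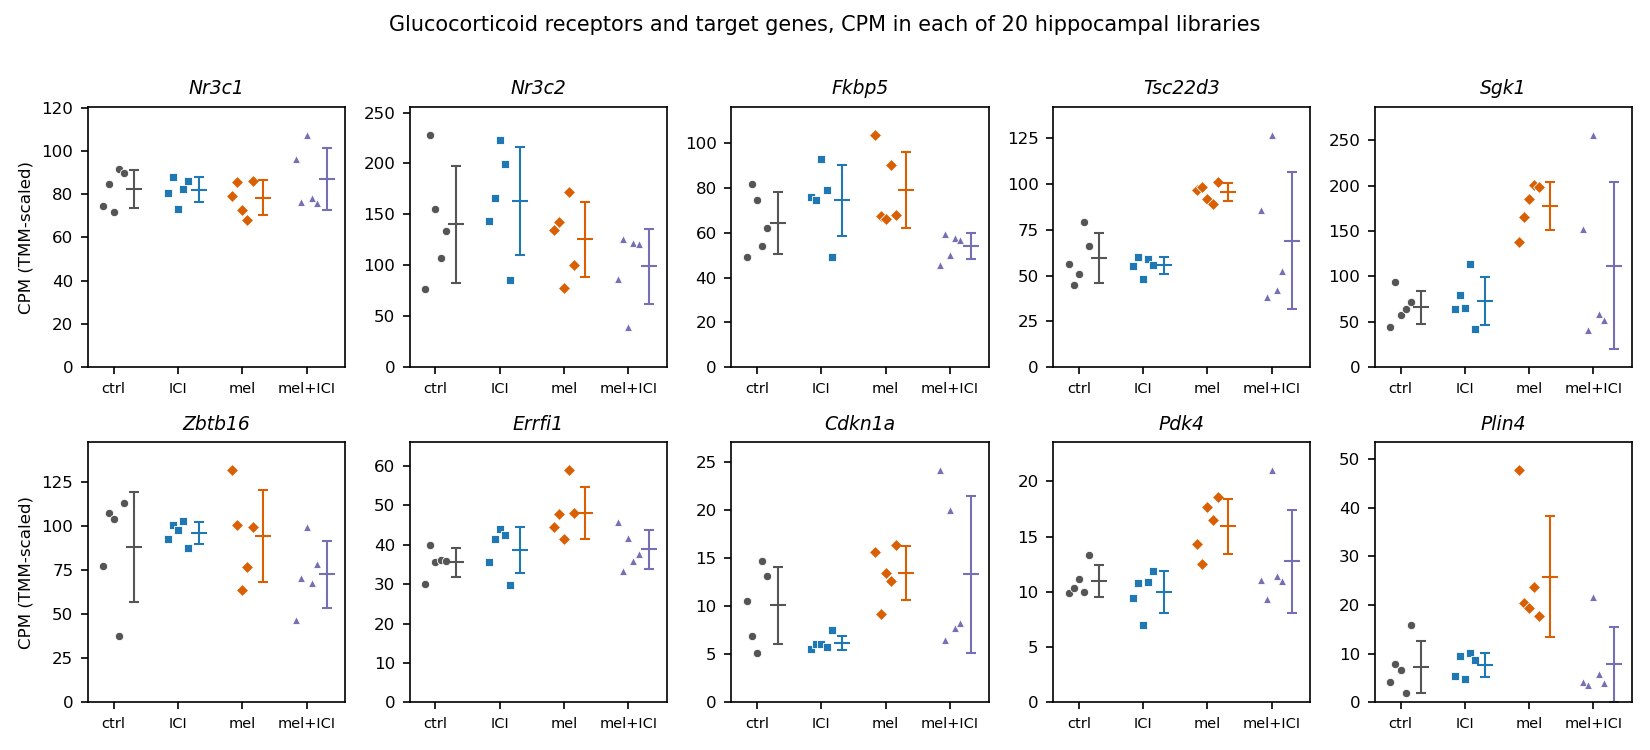
CPM of each of the 10 genes in every library, by group (ctrl is control, mel is melanoma, mel+ICI is melanoma plus ICI). Points are libraries and bars are mean ± SD of 5 mice. Sgk1 lies between 137 and 200.2 CPM in all 5 melanoma libraries and between 41.7 and 113.4 CPM in control and ICI, while melanoma plus ICI spreads from 41.3 to 256 CPM.

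Melanoma under isotype antibody was compared with control to see the effect of the tumour alone. Sgk1, Tsc22d3, Errfi1 and Plin4 were higher in each of the 5 melanoma libraries than in each of the 5 control libraries, and Pdk4 was higher on average. None of the 10 genes passed an adjusted p of 0.05 with edgeR's quasi-likelihood test, and no gene of the 18427 did (0%), while 941 genes (5.11%) had an unadjusted p under 0.05. Of the 10 genes, 5 had an unadjusted p under 0.05, all higher in melanoma, beside 2.7% of all genes tested that were higher at that level. Groups did not overlap for 4 of the 10, all higher, beside 0.554% of all genes tested. DESeq2 called 4 genes and limma voom 1 gene at an adjusted p of 0.05, and neither called any of the 10. A fit with only these groups called 3 genes, and Sgk1 was among them.

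Sgk1 (chromosome 10, 21882184 to 21999903) encodes a serum- and glucocorticoid-regulated kinase that acts on ion channels and transporters. Control libraries were at 43.97, 93.2, 57.6, 63.5 and 71.3 CPM, and melanoma libraries at 137, 165, 185, 200.2 and 199. ICI libraries were at 64.3, 79.9, 64.6, 113.4 and 41.7, and melanoma plus ICI libraries at 152, 41.3, 256, 58.3 and 52.3. The melanoma libraries were all above the control and ICI libraries, and the melanoma plus ICI group was split, with library 1 inside the melanoma range, library 3 above it and the other 3 within the control range or below it. Sgk1 was 2.69-fold higher in melanoma than in control, a log2 fold change of 1.43 (SE 0.40, edgeR, unadjusted p = 0.00181, adjusted p = 0.642). With only control and melanoma in the fit, the log2 fold change was 1.42 and the adjusted p 0.0482. The oligodendrocyte score was 9.22 ± 0.19 in melanoma and 8.86 ± 0.63 in control. With that score as a covariate, an alternative added after seeing the data, the Sgk1 log2 fold change was 1.09 (unadjusted p = 0.00200). Without the 4 libraries rich in striatum markers it was 1.46 (unadjusted p = 0.00271), and melanoma 2 and 4, whose striatum scores were 2.30 and 2.63, held 165 and 200.2 CPM.

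The Sgk1 upstream sequence is shown because it was the only promoter window among the 10 genes to hold the core of the palindromic response element, GNACANNNTGTNC. RefSeq windows of GRCm38.p6, from 250 bases before to 50 bases after a transcript start, were available for 8 of the 10 genes (17 windows). The core occurred in 1 of these 17 windows and in 156 of 32851 windows of all genes (0.475%), searched on both strands. The 250 bases before the start lie at chr10:21993640-21993889 on the plus strand, inside the gene span of the count tables, where Sgk1 has several starts. Capitals mark the core at chr10:21993702-21993714, position -188 from the start, together with matches to its 6-base arm AGAACA or the reverse complement TGTTCT. A pair of these matches overlaps the core, and another TGTTCT lies upstream of it at chr10:21993648-21993653. A single AGAACA arm on either strand was common, in 4 of the 17 windows and in 19% of all windows. The match describes the letters of the window and is not a measurement of receptor binding.
Sgk1, before the start: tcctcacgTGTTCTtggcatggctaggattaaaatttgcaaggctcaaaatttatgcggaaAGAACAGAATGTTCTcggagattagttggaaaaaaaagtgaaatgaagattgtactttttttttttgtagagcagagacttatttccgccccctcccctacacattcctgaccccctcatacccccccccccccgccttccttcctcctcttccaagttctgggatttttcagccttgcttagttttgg

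Among 20 further glucocorticoid-response genes, the core occurred in 3 of 22 windows (18 genes had a window), from Mt1 and from a pair of overlapping windows of Fam107a. They are set beside the Sgk1 core, each with 9 flanking bases, to let the letters be compared, with the core in capitals. These are at chr10:21993702-21993714 on the plus strand for Sgk1, chr8:94178995-94179007 on the plus strand for Mt1 and chr14:8309885-8309897 on the minus strand for Fam107a.
Sgk1: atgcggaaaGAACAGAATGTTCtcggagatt
Mt1: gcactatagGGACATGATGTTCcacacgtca
Fam107a: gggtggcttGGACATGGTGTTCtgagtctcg

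Tsc22d3 (chromosome X, 140539528 to 140600659) encodes GILZ, a leucine zipper protein that carries part of the anti-inflammatory action of glucocorticoids. Control libraries were at 56.4, 45.1, 51.1, 79.4 and 66.0 CPM, and melanoma libraries at 96.6, 98.7, 92.0, 89.2 and 101. ICI libraries were at 55.1, 60.03, 48.2, 59.1 and 56.0, and melanoma plus ICI libraries at 85.9, 38.1, 127, 42.3 and 52.7. The melanoma values lay in a narrow band above every control and ICI library, and melanoma plus ICI 1 and 3 again stood apart from the other 3 libraries of their group. Tsc22d3 was 1.60-fold higher in melanoma than in control, a log2 fold change of 0.68 (SE 0.24, edgeR, unadjusted p = 0.0106, adjusted p = 0.817). With 4 tissue scores as covariates it was 0.34 (unadjusted p = 0.159).

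Errfi1 (chromosome 4, 150853919 to 150868892), which encodes an inhibitor of epidermal growth factor receptor signalling, had the smallest unadjusted p of the 10 genes in this contrast. Control libraries were at 30.0, 40.1, 35.6, 36.2 and 35.9 CPM and melanoma libraries at 44.6, 47.9, 41.5, 59.0 and 48.0. Every melanoma library was above every control library, the closest being 41.5 against 40.1. The log2 fold change was 0.44 (SE 0.12, edgeR, unadjusted p = 0.00132, adjusted p = 0.642), a 1.36-fold difference. Errfi1 had r = 0.56 with the oligodendrocyte score over the 20 libraries (within groups 0.48), and Plin4 had 0.55 (within groups 0.44). All 6 oligodendrocyte markers were above 0 in this contrast, with a median log2 fold change of 0.23.

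Plin4 and Pdk4 belong to lipid and fuel metabolism. Plin4 (chromosome 17, 56100591 to 56109803) encodes a perilipin that coats lipid droplets, and it was at 4.11, 7.95, 6.56, 1.94 and 15.8 CPM in control and 47.7, 20.4, 19.5, 23.8 and 17.7 in melanoma. The groups did not overlap, and melanoma 1 was far above the rest of its group. Plin4 was 3.54-fold higher in melanoma, a log2 fold change of 1.82 (SE 0.52, edgeR, unadjusted p = 0.00232, adjusted p = 0.656). Plin4 overlaps Hdgfl2 on the opposite strand, which held 872% of the Plin4 counts, and the strand setting of the counting is not given in the sources used here, so the Plin4 counts are uncertain. Hdgfl2 itself was at 105 ± 2.37 CPM in control and 109 ± 3.78 in melanoma, a log2 fold change of 0.06 (SE 0.06, edgeR, unadjusted p = 0.361). Its melanoma plus ICI against melanoma value was -0.09 (SE 0.06, edgeR, unadjusted p = 0.157). Pdk4 (chromosome 6, 5483351 to 5496309), a kinase that shuts down pyruvate dehydrogenase and thereby glucose oxidation, was at 9.88, 10.3, 11.2, 10.0 and 13.4 CPM in control and 14.3, 12.5, 17.7, 16.5 and 18.6 in melanoma. The Pdk4 groups overlapped at 1 pair of libraries, control 5 and melanoma 2, and its log2 fold change was 0.54 (SE 0.19, edgeR, unadjusted p = 0.00996, adjusted p = 0.813). All 5 striatum markers were higher in melanoma at an unadjusted p under 0.05, with a median log2 fold change of 2.49, and with the 4 tissue scores as covariates, striatum among them, the Pdk4 value was 0.33 (edgeR, unadjusted p = 0.0473).

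For the other response genes of the 10, the difference between melanoma and control had an unadjusted p above 0.05. Fkbp5 (chromosome 17, 28399095 to 28517524), a co-chaperone that lowers the receptor's affinity for its hormone and is itself induced by it, was at 64.5 ± 13.7 CPM in control and 79.2 ± 17.0 in melanoma (log2 fold change 0.30, SE 0.17, edgeR, unadjusted p = 0.0903). With the 4 tissue scores as covariates the value was also 0.30, at an unadjusted p of 0.0447, without control 2 it was 0.39 (edgeR, unadjusted p = 0.0345), and without melanoma 1 it was 0.17 (unadjusted p = 0.311). Of 20 fits with 1 library left out, 1 had an unadjusted p under 0.05. Cdkn1a (chromosome 17, 29090979 to 29100722), the cell cycle inhibitor p21, was at 10.1 ± 4.03 and 13.5 ± 2.84, and the transcription factor gene Zbtb16 (chromosome 9, 48654297 to 48836222) at 88.0 ± 31.2 and 94.5 ± 26.0. The Cdkn1a and Zbtb16 groups overlapped. The median log2 fold change of the 10 genes was 0.43 with 8 of 10 above 0, beside a median of -0.01 over all genes tested.

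A list of 20 other glucocorticoid-response genes was read in the same contrast. It was also chosen with earlier results of these data known, so its counts are not independent support. Of the 20, 7 were higher in melanoma at an unadjusted p under 0.05 and 0 lower, beside 2.7% of all genes tested that were higher. For 6 of the 20 the groups did not overlap, all higher, beside 0.554% of all genes tested, and 0 passed the adjusted threshold with edgeR, DESeq2 or limma voom. The 3 with the smallest p were Ddit4, an inhibitor of mTOR signalling, Arrdc2, an arrestin-domain gene, and Sult1a1, a sulfotransferase. Ddit4 was at 75.7 ± 9.54 CPM in control and 122 ± 8.67 in melanoma, a log2 fold change of 0.69 (SE 0.17, edgeR, unadjusted p = 5.8e-04, adjusted p = 0.642). Arrdc2 was at 12.4 ± 2.09 and 28.5 ± 3.59 and Sult1a1 at 6.82 ± 0.940 and 10.8 ± 1.48, with log2 fold changes of 1.20 and 0.66. The median of the list was 0.22, with 17 of 20 above 0. In the fit with the 4 tissue scores, 3 of the 20 were higher at that level in place of 7, and the median was 0.09. Among 8 clock genes, Per2 and Ciart were higher and Arntl lower without overlap between groups, beside 0.483% of all genes tested that were lower without overlap. None of the 3 had, with the 4 tissue scores, an unadjusted p under 0.05: the values were 0.43 for Per2, 0.30 for Ciart and -0.24 for Arntl (edgeR, unadjusted p = 0.0840, 0.143 and 0.0536). Per2 was at 46.8 ± 13.7 CPM in control and 68.9 ± 4.66 in melanoma, and Arntl at 32.3 ± 2.88 and 26.9 ± 1.72. Without control 4 the Per2 log2 fold change was 0.38 in place of 0.56, at an unadjusted p of 0.0867 with edgeR. The Ciart value was 0.53 in place of 0.61 when control 3 was left out (edgeR, unadjusted p = 0.0510), and the Arntl value -0.22 in place of -0.27 when control 2 was (edgeR, unadjusted p = 0.0556). The time of day at collection is not given in the sources used here, and its part in these values was not tested. Of 14 partner and ligand-pathway genes (chaperones, coactivators, the activating enzyme Hsd11b1 and the corticotropin-releasing hormone system), only Crhr2, a receptor of that system, had an unadjusted p under 0.05, beside 2.41% of all genes tested that were lower at that level. It was at 6.30 ± 2.75 CPM in control and 2.87 ± 1.82 in melanoma. The 6 choroid plexus markers were all below 0 on the log2 fold change scale in this contrast, with a median of -1.42. Crhr2 was highest in melanoma plus ICI 4 (13.8 CPM, choroid plexus score 7.19) and control 2 (10.5 CPM, score 6.97), and without control 2 its log2 fold change was -0.88 in place of -1.13 (edgeR, unadjusted p = 0.120). With the 4 tissue scores as covariates, choroid plexus among them, it was -0.48 (edgeR, unadjusted p = 0.199).

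**Figure D2:**
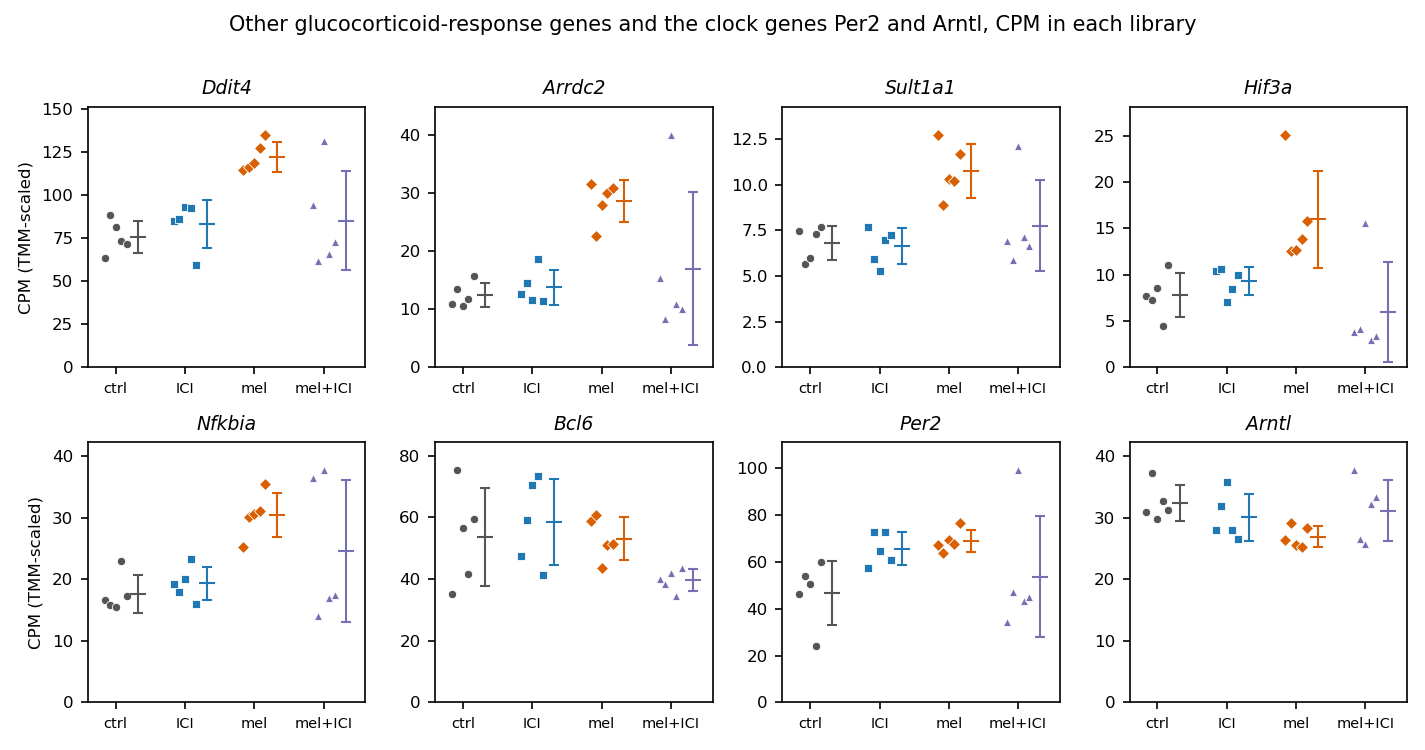
CPM of 6 other glucocorticoid-response genes and the clock genes Per2 and Arntl in every library, by group (ctrl is control, mel is melanoma, mel+ICI is melanoma plus ICI). Points are libraries and bars are mean ± SD of 5 mice. Ddit4 and Arrdc2 are above every control library in all 5 melanoma libraries, and melanoma plus ICI spreads across both ranges.

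Melanoma plus ICI was compared with melanoma to see the inhibitors' effect in tumour-bearing mice. Fkbp5, Errfi1 and Plin4 were lower on average under the inhibitors. None of the 10 genes, and 0 of the 18427 genes tested (0%), passed an adjusted p of 0.05 with edgeR, and 1013 genes (5.5%) had an unadjusted p under 0.05. DESeq2 gave 0 genes and limma voom with quality weights 25, among them Tsc22d3 at a log2 fold change of -0.94 (adjusted p = 0.0224), Sgk1 at -1.51 (adjusted p = 0.0483) and Plin4 at -2.32 (adjusted p = 0.0306). Of the 10 genes, 3 had an unadjusted p under 0.05 with edgeR, all lower, beside 2.87% of all genes tested that were lower at that level. For 1 of the 10, Fkbp5, the groups did not overlap, beside 0.901% of all genes. The median log2 fold change of the 10 genes was -0.36 with 1 of 10 above 0, beside a median of 0.02 over all genes tested. In the same contrast 0 of 6 oligodendrocyte markers and 0 of 5 striatum markers were above 0, with median log2 fold changes of -0.37 and -1.31, and 2 striatum markers were lower at an unadjusted p under 0.05. For the dentate gyrus it was 0 of 5 markers (median -0.47). All 6 choroid plexus, all 6 meninges and all 5 neocortex markers were above 0, with medians of 1.37, 0.71 and 0.28. Of these, 1 meninges marker was higher at an unadjusted p under 0.05.

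Fkbp5 held the clearest separation in this contrast. Melanoma libraries were at 103.85, 67.5, 66.3, 90.2 and 68.2 CPM and melanoma plus ICI libraries at 45.8, 59.5, 50.2, 58.0 and 57.1, so every melanoma plus ICI library was below every melanoma library. The log2 fold change was -0.55 (SE 0.17, edgeR, unadjusted p = 0.00380, adjusted p = 0.825). Control libraries, at 49.3, 81.9, 74.9, 54.1 and 62.0 CPM, and ICI libraries, at 76.3, 74.7, 93.3, 79.3 and 49.2, overlapped with both tumour-bearing groups. With 4 tissue scores as covariates the log2 fold change was -0.31 (unadjusted p = 0.0565), and the dentate gyrus score, with which Fkbp5 correlated, was 4.48 ± 1.07 in melanoma and 3.78 ± 0.95 in melanoma plus ICI.

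Plin4 was at 4.23, 3.54, 21.6, 5.76 and 4.003 CPM in melanoma plus ICI, so 4 of 5 libraries were below every melanoma library and melanoma plus ICI 3 was inside the melanoma range. Its log2 fold change against melanoma was -1.72 (SE 0.52, edgeR, unadjusted p = 0.00354, adjusted p = 0.825). Without melanoma plus ICI 3 it was -2.55 and passed the threshold (adjusted p = 0.0396). Leaving out that 1 library brought 12 genes past the threshold in place of 0 and 6 of the 10 genes to an unadjusted p under 0.05 in place of 3. Errfi1 was at 45.9, 33.4, 41.7, 35.9 and 37.6 CPM in melanoma plus ICI, with a log2 fold change of -0.31 against melanoma (SE 0.12, edgeR, unadjusted p = 0.0160, adjusted p = 0.825). Its groups overlapped through libraries 1 and 3. The Errfi1 value was -0.22 without melanoma 4 (edgeR, unadjusted p = 0.0745), -0.26 without melanoma plus ICI 2 (unadjusted p = 0.0533), -0.24 with the 4 tissue scores (unadjusted p = 0.0697) and -0.23 with the oligodendrocyte score (unadjusted p = 0.0570). Sgk1, Tsc22d3 and Pdk4 were lower on average by log2 fold changes of -0.66, -0.47 and -0.32 at unadjusted p-values of 0.104, 0.0670 and 0.104. Leaving out melanoma plus ICI 3 made these -1.22, -0.80 and -0.57 (edgeR, unadjusted p = 0.00171, 4.8e-04 and 0.00114), and leaving out melanoma plus ICI 2 made them -0.45, -0.31 and -0.23 (unadjusted p = 0.244, 0.192 and 0.253). Of 20 such fits, 1 had an unadjusted p under 0.05 for Sgk1, 2 for Tsc22d3 and 1 for Pdk4.

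The 20 other response genes had 8 lower and 0 higher at an unadjusted p under 0.05 in melanoma plus ICI against melanoma, beside 2.87% of all genes tested that were lower at that level, and 0 of the 20 had a log2 fold change above 0. The count was 4 with the 4 tissue scores, 5 with the oligodendrocyte score, 4 without melanoma plus ICI 2 or 4, and 5 without melanoma 1 or melanoma plus ICI 5. The smallest p belonged to Hif3a, a hypoxia-inducible factor subunit, which was at 15.98 ± 5.26 CPM in melanoma and 5.97 ± 5.40 in melanoma plus ICI (log2 fold change -1.42, SE 0.37, edgeR, unadjusted p = 0.00120, adjusted p = 0.825). Hif3a was at 3.78, 4.16, 15.6, 2.92 and 3.38 CPM in the melanoma plus ICI libraries, with library 3 again inside the melanoma range. With 1 library left out the Hif3a log2 fold change ranged from -2.16 to -1.19. Ddit4 and Sult1a1 followed with log2 fold changes of -0.52 and -0.47, and with the 4 tissue scores the Ddit4 value was -0.35 (edgeR, unadjusted p = 0.0816). Of the 14 partner and ligand-pathway genes, the co-chaperone gene Stip1 and the pro-hormone gene Pomc were higher at an unadjusted p under 0.05, beside 2.63% of all genes tested, at log2 fold changes of 0.19 and 1.01. The Pomc value rested on 1 library. Pomc was at 6.18 CPM in melanoma plus ICI 5 and at 0.81 to 1.64 in the other 4 libraries of that group, and without library 5 its log2 fold change was 0.16 (edgeR, unadjusted p = 0.443). Stip1 was at 238, 198, 170, 188 and 202 CPM in melanoma plus ICI and between 161 and 186 in melanoma. Without melanoma plus ICI 1 the Stip1 value was 0.12 (edgeR, unadjusted p = 0.161).

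**Figure D3:**
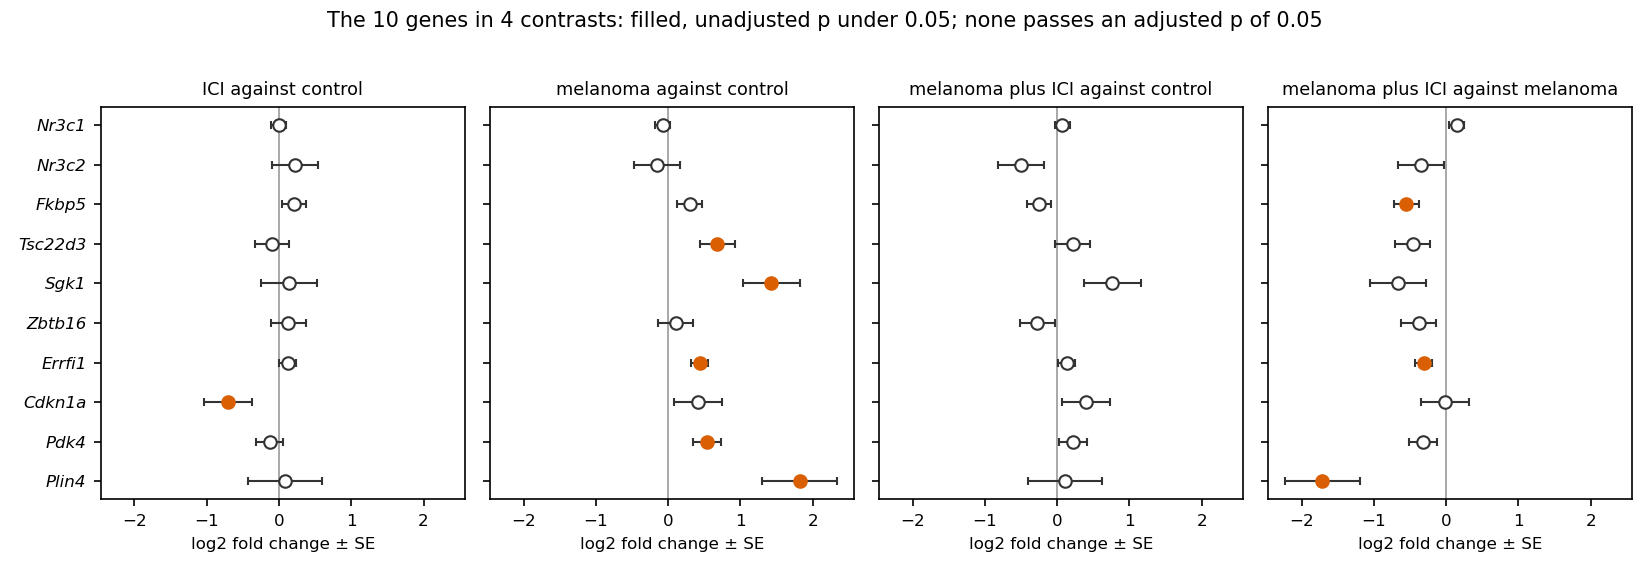
Log2 fold change of each of the 10 genes in 4 contrasts, with bars of 1 SE from edgeR. Filled points have an unadjusted p under 0.05, and no point passes an adjusted p of 0.05. Sgk1 stands at 1.43 and Plin4 at 1.82 in melanoma against control, and Plin4 at -1.72 in melanoma plus ICI against melanoma.

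Within each library, the 10 genes were counted above their own median over all 20 libraries. In melanoma, 9, 10, 6, 8 and 9 of the 10 genes were above it. Control libraries had 1, 5, 4, 3 and 7 such genes, and ICI libraries 2, 8, 4, 7 and 3. The melanoma plus ICI libraries had 5, 0, 8, 1 and 0. In that group libraries 2 and 5 thus had none of the 10 genes above the median, and library 3 had 8. No share over all genes tested is set beside these counts. By Pearson r, 17 of 45 pairs of the genes correlated past the adjusted threshold, 15 positively and 2 negatively. A count is therefore not a tally of 10 separate readings, and the part of tissue content in it was not tested.

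The inhibitors without a tumour, ICI against control, gave log2 fold changes between -0.13 (Pdk4) and 0.22 (Nr3c2) for 9 of the 10 genes, and Cdkn1a was lower at an unadjusted p under 0.05. With edgeR, 0 genes of 18427 passed an adjusted p of 0.05 (0%), 964 (5.23%) had an unadjusted p under 0.05, and DESeq2 called 1 gene and limma voom 0. Of the 10 genes, 1 had an unadjusted p under 0.05, lower in ICI, beside 3.15% of all genes tested. It was Cdkn1a, at 5.58, 6.05, 6.05, 5.77 and 7.51 CPM in ICI and 10.6, 6.89, 5.19, 14.7 and 13.1 in control. The ICI values lay in a narrow band inside the lower part of the control range. The log2 fold change was -0.71 (SE 0.34, edgeR, unadjusted p = 0.0483, adjusted p = 0.766), and without control 4 it was -0.54 at an unadjusted p of 0.144. Of the 20 fits with 1 library left out, 9 had an unadjusted p under 0.05. The 20 other response genes had 0 higher and 1 lower at that level, beside the same 3.15% of all genes that were lower. Of the 5 endothelium markers, 0 were above 0 in this contrast and 2 were lower at an unadjusted p under 0.05, and the endothelium score was 4.74 ± 0.12 in ICI and 5.04 ± 0.14 in control. Their part in the Cdkn1a value was not tested.

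Melanoma plus ICI against control had 0 of the 10 genes at an unadjusted p under 0.05, beside 438 of all genes tested (2.38%), and 0 genes (0%) past the adjusted threshold with edgeR, DESeq2 and limma voom. Sgk1 had the largest log2 fold change, 0.76 (SE 0.39, edgeR, unadjusted p = 0.0650). Without melanoma plus ICI 3 the Sgk1 value was 0.20 and its unadjusted p 0.539. Without melanoma plus ICI 2 it was 0.97 (edgeR, unadjusted p = 0.0170), and with the oligodendrocyte score 0.64 (edgeR, unadjusted p = 0.0391).

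Melanoma plus ICI against ICI, the tumour's effect under the inhibitors, had 3 of the 10 genes at an unadjusted p under 0.05, beside 1590 genes (8.63%; 4.12% higher and 4.51% lower), and 0 genes (0%) past the adjusted threshold with edgeR, where DESeq2 called 4 and limma voom 0. Cdkn1a was at 24.2, 6.48, 20.01, 7.74 and 8.27 CPM in melanoma plus ICI, above the ICI values on average by a log2 fold change of 1.11 (SE 0.34, edgeR, unadjusted p = 0.00365, adjusted p = 0.563). Libraries 1 and 3 were high, and the groups overlapped through library 2. Fkbp5 was lower by a log2 fold change of -0.46 (SE 0.17, edgeR, unadjusted p = 0.0123, adjusted p = 0.563), and Nr3c2 by the -0.72 given with the receptors. All 5 dentate gyrus markers were lower in this contrast at an unadjusted p under 0.05, with a median log2 fold change of -1.17. With the 4 tissue scores as covariates the Fkbp5 value was -0.11 (unadjusted p = 0.463) and the Cdkn1a value 1.04 (unadjusted p = 0.0152). All 5 endothelium, all 5 neocortex and all 6 meninges markers were above 0, of which 2, 1 and 3 were higher at an unadjusted p under 0.05. The median log2 fold changes of these lists were 0.22, 0.43 and 0.72. The endothelium and neocortex scores were not among the covariates, and their part in the Cdkn1a value was not tested. The 20 other response genes had 3 higher and 1 lower at an unadjusted p under 0.05, beside the 4.12% and 4.51% of all genes. Bcl6 was the lower one, at -0.56 (edgeR, unadjusted p = 0.00546), or -0.20 with the 4 tissue scores (edgeR, unadjusted p = 0.177). Pomc was higher by 1.02 (edgeR, unadjusted p = 0.0191), or 0.17 without melanoma plus ICI 5 (edgeR, unadjusted p = 0.426). Among 8 immediate early genes, which report recent neuronal activity, Fos, Fosb and Egr2 were higher in the same contrast at unadjusted p-values of 0.00862, 0.00754 and 0.00755. Without melanoma plus ICI 1 the Egr2 log2 fold change was 0.87 in place of 1.80 (edgeR, unadjusted p = 0.103) and the Fos value 0.86 in place of 1.40 (unadjusted p = 0.0665). The Fosb value was 0.59 in place of 0.92 with the 4 tissue scores (edgeR, unadjusted p = 0.0957) and the Fos value 1.14 (unadjusted p = 0.0511). In melanoma against control 8 of 8 were above 0 (median log2 fold change 0.34), and Fosb had an unadjusted p under 0.05 (0.87, edgeR, unadjusted p = 0.0106), or 0.47 with the 4 tissue scores (unadjusted p = 0.192). In ICI against control 0 of 8 were above 0 (median -0.64), with Npas4 at -0.82 (edgeR, unadjusted p = 0.0262). In melanoma plus ICI against control and against melanoma, 0 of 8 had an unadjusted p under 0.05. The part of activity in the values of the 10 genes was not tested.

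The interaction asks whether the inhibitors acted differently with and without a tumour, as the difference between melanoma plus ICI against melanoma and ICI against control. With edgeR, 0 of 18427 genes (0%) passed the adjusted threshold and 1892 (10.3%) had an unadjusted p under 0.05, while DESeq2 called 49 genes and limma voom 19. Of the 10 genes, 3 had an unadjusted p under 0.05, all lower, beside 4.28% of all genes tested that were lower at that level. All 6 choroid plexus and all 6 meninges markers had an interaction above 0, with medians of 2.62 and 1.03. For the dentate gyrus and striatum markers it was 0 of 5 in each list, with medians of -0.67 and -1.52. Fkbp5 had an interaction of -0.76 on the log2 scale (SE 0.24, edgeR, unadjusted p = 0.00447, adjusted p = 0.476). Without a tumour its mean was 64.5 CPM under isotype antibody and 74.5 under the inhibitors, and with a tumour these means were 79.2 and 54.1. With the 4 tissue scores as covariates the Fkbp5 interaction was -0.42 (edgeR, unadjusted p = 0.0666). Errfi1 and Plin4 had interactions of -0.43 and -1.80 at adjusted p-values of 0.484, and Hdgfl2, the gene that overlaps Plin4, had -0.18 (SE 0.09, edgeR, unadjusted p = 0.0492), or -0.12 without ICI 3 (edgeR, unadjusted p = 0.140). The Plin4 interaction was -1.45 without melanoma 1 (edgeR, unadjusted p = 0.0587), and the Errfi1 interaction -0.29 with the 4 tissue scores (edgeR, unadjusted p = 0.123). The Sgk1, Tsc22d3 and Pdk4 interactions were -0.81, -0.37 and -0.19 (edgeR, unadjusted p = 0.159, 0.292 and 0.487). With 1 library left out they ranged from -1.35 to -0.58, -0.70 to -0.21 and -0.43 to -0.09, and each had an unadjusted p under 0.05 in 1 of 20 fits, the one without melanoma plus ICI 3. Of the 20 other response genes, Hif3a, Ddit4 and Bcl6 had the same sign at an unadjusted p under 0.05, with interactions of -1.67, -0.66 and -0.54. The Bcl6 value was -0.44 without ICI 4 (edgeR, unadjusted p = 0.0968), and with the 4 tissue scores the Ddit4 value was -0.36 and the Bcl6 value -0.26 (edgeR, unadjusted p = 0.201 and 0.227). Of the 8 clock genes, 3 had a negative interaction and 1 a positive one at an unadjusted p under 0.05, beside 5.99% of all genes tested that were positive: Per2 at -0.84, Dbp at -0.51, Tef at -0.31 and Arntl at 0.32. The Dbp value lost that level without melanoma plus ICI 4 (-0.43, edgeR, unadjusted p = 0.0611), and the Arntl value without melanoma plus ICI 1 (0.24, unadjusted p = 0.0965). The Tef value was -0.23 with the 4 tissue scores (edgeR, unadjusted p = 0.120).

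The 10 genes were then compared with each other across mice. Over 45 pairs, 17 correlations of log2 CPM (Pearson, permutation test with 100000 resamples) passed an adjusted p of 0.05, 15 positive and 2 negative. By Spearman's rho 14 passed, and after each group was centred on its own mean 7 passed. Tsc22d3 and Sgk1 had r = 0.85 (rho = 0.79, adjusted permutation p = 4.5e-04), and r = 0.79 without the 2 libraries farthest from the Tsc22d3 median. Within groups r was 0.74, with an adjusted permutation p of 0.0899. Sgk1 and Errfi1 had r = 0.82 (rho = 0.86, adjusted permutation p = 4.5e-04), 0.87 without the 2 farthest libraries and 0.68 within groups (adjusted permutation p = 0.0132). Tsc22d3 and Cdkn1a had r = 0.79 (rho = 0.73), 0.73 without the 2 farthest libraries and 0.82 within groups (adjusted permutation p = 0.0356). Pdk4 and Plin4 had r = 0.75 (rho = 0.80), 0.74 without the 2 farthest and 0.67 within groups (adjusted permutation p = 0.0428). Nr3c2 and Fkbp5 were the pair with a receptor that had the highest value, r = 0.74 (rho = 0.83), 0.75 without the 2 farthest libraries and 0.76 within groups (adjusted permutation p = 0.00900). The negative pairs were Nr3c2 with Cdkn1a, r = -0.64 (rho = -0.64), and Nr3c2 with Pdk4, r = -0.55 (rho = -0.36). Without the 2 farthest libraries these were -0.55 and -0.33, and within groups -0.61 and -0.62 (adjusted permutation p = 0.0547 and 0.0692). Nr3c2 with Tsc22d3 had -0.66 within groups (adjusted permutation p = 0.0392), beside -0.51 over all libraries and -0.23 without the 2 farthest. Nr3c1 correlated with none of the other 9 genes past the threshold over all 20 libraries, and within groups it did with Tsc22d3, at r = 0.80 (adjusted permutation p = 0.0132) beside 0.43 over all libraries (rho = 0.39, and r = 0.40 without the 2 farthest libraries).

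**Figure D4:**
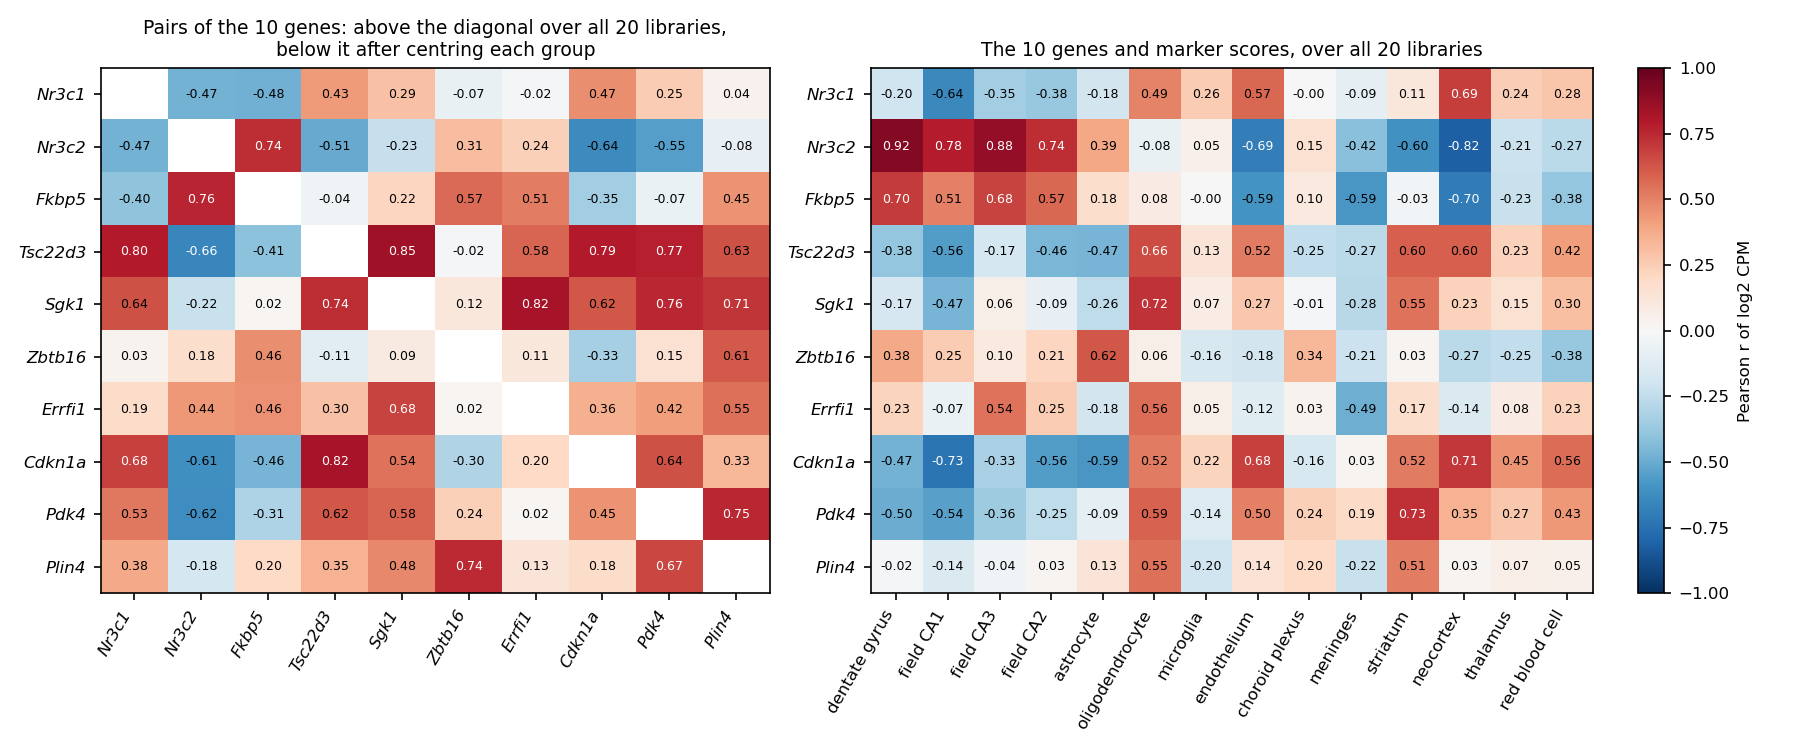
Pearson r between the log2 CPM of the 10 genes (20 libraries above the diagonal, values centred within groups below it) and between the genes and the tissue marker scores. Tsc22d3 and Sgk1 have the highest value between genes, 0.85, and Nr3c2 with the dentate gyrus score the highest with a marker score, 0.92.

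Marker scores of tissue content moved with several of the genes. Of 140 relations between the 10 genes and 14 scores, 32 passed an adjusted p of 0.05 by Pearson, 15 by Spearman and 19 within groups. Nr3c2 had r = 0.92 with the dentate gyrus score (rho = 0.89, within groups 0.90), 0.88 with the field CA3 score and -0.82 with the neocortex score. Without the 2 libraries farthest from the Nr3c2 median, melanoma plus ICI 3 and control 2, the dentate gyrus value was 0.88. Fkbp5 had r = 0.70 with the dentate gyrus score (rho = 0.78, within groups 0.76). Sgk1 had r = 0.72 with the oligodendrocyte score (rho = 0.69, within groups 0.70, adjusted permutation p within groups = 0.0206), and 0.72 without the 2 farthest libraries. With the striatum score Pdk4 had r = 0.73 (rho = 0.36, adjusted permutation p = 0.00716), 0.56 without the 2 farthest libraries and 0.58 within groups (adjusted permutation p within groups = 0.0945). With the same score Sgk1 had r = 0.55 but rho = 0.09, within groups 0.24, and 0.54 without the 2 farthest libraries. Tsc22d3 had r = 0.66 with the oligodendrocyte score, 0.60 without the 2 farthest libraries and 0.56 within groups (adjusted permutation p within groups = 0.135). With the neocortex score it had r = 0.60, 0.48 without the 2 farthest libraries and 0.84 within groups (adjusted permutation p within groups = 0.00500). With the endothelium and field CA1 scores it had 0.75 and -0.85 within groups (adjusted permutation p = 0.0120 and 0.0384). Nr3c1 had r = 0.69 with the neocortex score (within groups 0.70, adjusted permutation p = 0.0603) and 0.57 with the endothelium score (within groups 0.77, adjusted permutation p = 0.0114). Cdkn1a had r = 0.71 with the neocortex score (rho = 0.65, 0.54 without the 2 farthest libraries, within groups 0.81, adjusted permutation p within groups = 0.0293). It had r = -0.73 with the field CA1 score (within groups -0.77, adjusted permutation p = 0.0358) and 0.68 with the endothelium score (within groups 0.62, adjusted permutation p = 0.0683). These scores use none of the 10 genes, and their part in the group differences was not tested beyond the covariate fits given above.

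**Figure D5:**
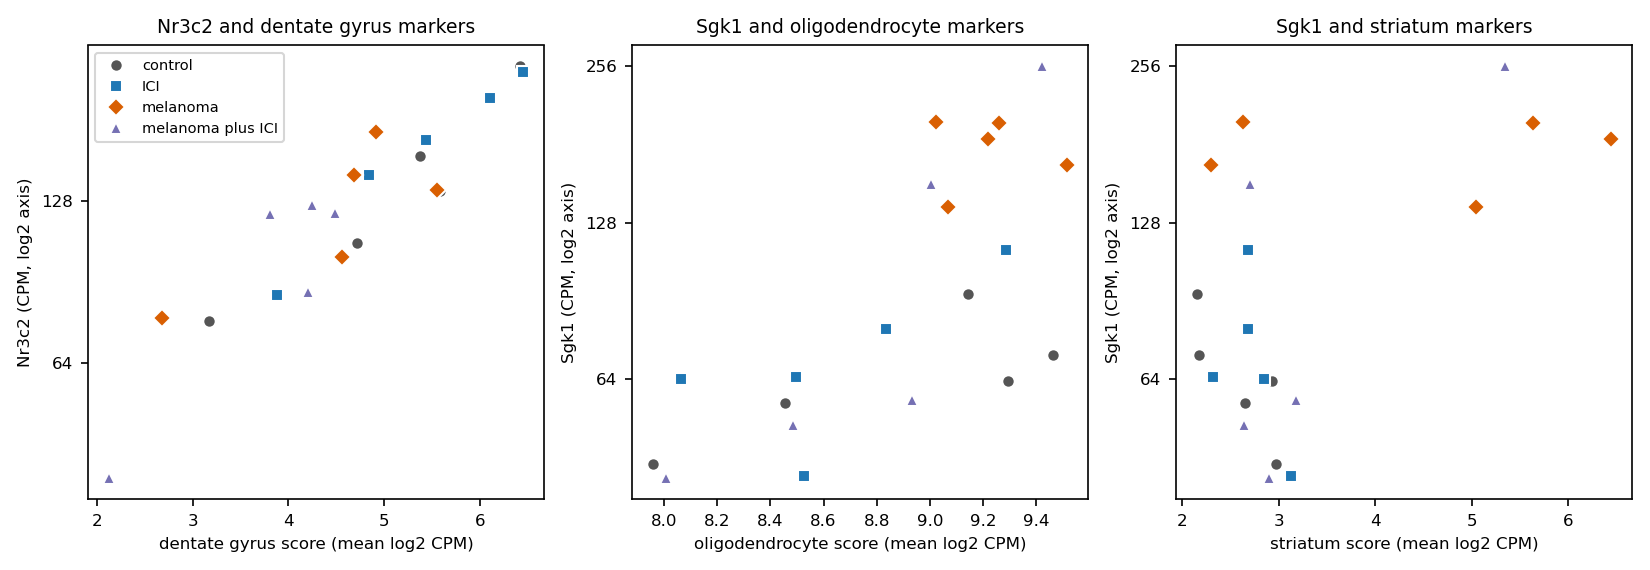
Log2 CPM of Nr3c2 against the dentate gyrus score, and of Sgk1 against the oligodendrocyte and striatum scores, for 20 libraries coloured by group. Scores are mean log2 CPM of a marker list. Sgk1 is high in melanoma 2 and 4, whose striatum scores are 2.30 and 2.63.

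Across 15474 genes with a mean of at least 1 CPM, the genes most like each member over the 20 libraries were listed by Pearson r, as a description. Sgk1 was closest to Ddit4 (r = 0.94), Arrdc2 (0.93) and Arrdc3 (0.92), and Errfi1 to Ddit4 (0.86), Sgk1 (0.82) and Rab40c (0.80). Fkbp5 was closest to Epn2 (0.92), Agap2, Mast3, Nptx1 and Mrtfa (all 0.91). Nr3c2 was closest to Cacng8, Galnt17 and Scn3b (0.98, 0.98 and 0.97). Pdk4 was closest to Klf15, Slc2a1 and Txnip (all 0.89), Tsc22d3 to Rhou, Ly6c1 and Plekhf1 (0.92, 0.91 and 0.91), and Plin4 to Adipor2 (0.89), Arhgef10 and Zfp276 (both 0.88). Cdkn1a, which had r = 0.71 with the neocortex score, was closest to Trbc2, a T cell receptor constant segment gene (0.92, at a mean of 2.14 CPM), Tmem232 (0.87) and Arpp19 (0.86). The cell type that gave the Trbc2 counts was not tested. Zbtb16 was closest to Epb41l1 (0.95), Fbxl18 and Rab11fip3 (both 0.93), and Nr3c1 to Pik3ca (0.91), Kcnh7 (0.89) and Slc30a4 (0.85). All of these share the libraries and their tissue content, and no p is given.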

How the data were processed

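Bulk RNA was measured in 20 hippocampi. Per the file headers, the deposited tables hold raw counts per gene for 1 library each. STAR 2.5.2b and DESeq2 1.16.1 are named in the submitters' processing notes, and the counting program, strand setting and build are not given in the sources used here. Of 49671 identifiers, 49326 took a symbol from GENCODE M21 (GRCm38), and those without one held 0.0702% of counts. Coordinates are those of the deposited tables, and 7 of the 10 genes have the same start and end in GENCODE M21. Groups came from the sample titles. Pairs of libraries within groups differed by a chi-square of 10.5 to 120.2 per gene over 40 pairs, more than sampling noise.

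Genes were filtered with filterByExpr (minimum count 10, minimum total 15), scaled by TMM (factors 0.9555 to 1.0432) and tested with edgeR 4.0.16 in R 4.3.3, by a quasi-likelihood fit to all 20 libraries with 1 mean per group, 6 contrasts, and Benjamini-Hochberg adjustment over 18427 genes. The fit was tested on simulated data. Log2 CPM used a prior count of 2. Correlations used scipy 1.17.1 with 100000 resamples (smallest p 1e-05). The 10 genes and all lists were chosen with earlier results of these data known. All 10 are named. Other list genes were named at an unadjusted p under 0.05, at most 3 per list and contrast, plus clock and activity genes beside a result. Not every list gene at that level is named in each contrast. Fam107a and Mt1 are named for their promoters. Alternatives were size factors, DESeq2 1.42.0, limma 3.58.1 voom, no filter, only the groups compared, a replicate block, covariates for tissue scores, and leaving out libraries.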

Additional observations from a re-analysis of the deposited data

Results flagged for a closer look

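In 4 of 40 combinations of gene and group, 1 library stood so far from the other 4 that the gap exceeded Dixon's 95% critical value of 0.71 of the group's range. Chance flags about 1 in 20 such groups. Plin4 was at 47.7 CPM in melanoma 1, where the other 4 melanoma libraries were between 17.7 and 23.8. Plin4 was at 21.6 CPM in melanoma plus ICI 3, against 3.54 to 5.76 in the other 4. Pdk4 was at 21.0 CPM in that same library, against 9.33 to 11.5. Cdkn1a was at 7.51 CPM in ICI 5, against 5.58 to 6.05.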

How the results depend on the processing

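Genes past the adjusted threshold, 0 with edgeR in all 6 contrasts, became with DESeq2 1 for ICI against control, 4 for melanoma against control, 49 for the interaction and 4 for melanoma plus ICI against ICI. With limma voom there was 1 gene in melanoma against control, and there were 25 genes between melanoma plus ICI and melanoma and 19 for the interaction. With only the groups compared, melanoma against control gave 3. Without control 4 and melanoma plus ICI 1 the interaction gave 1, and without the 4 libraries rich in striatum markers (added after seeing the data) melanoma plus ICI against melanoma gave 1. Leaving out 1 library gave 0 to 3 for melanoma against control, 0 to 12 for ICI in tumour-bearing mice (melanoma plus ICI against melanoma) and 0 to 11 for the interaction, the highest each time without melanoma plus ICI 3.

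Of the 10 genes, those at an unadjusted p under 0.05 numbered 1 in ICI against control. This became 0 with voom, no filter, the replicate block, without control 4 and melanoma plus ICI 1, without the striatum-rich libraries and with the oligodendrocyte score as covariate (added after seeing the data). It was 0 to 2 with 1 library left out. Melanoma plus ICI against control gave 1 in place of 0 with voom and with the oligodendrocyte score, and 0 to 1 with 1 library left out. Melanoma plus ICI against melanoma gave 8 with voom, 6 without the striatum-rich libraries and 2 to 6 with 1 library left out, in place of 3. Melanoma plus ICI against ICI gave 1 with 4 tissue scores and 2 to 5 with 1 library left out, and the interaction 5 with voom, 1 with 4 tissue scores and 2 to 6 with 1 library left out, each in place of 3. Melanoma against control gave 5 to 6 with 1 library left out, and 6 with 4 tissue scores, of which Tsc22d3 was not one and Fkbp5 and Nr3c2 were. Correlated pairs numbered 16 to 20 with 1 library left out. The cause of these shifts was not tested. The replicate numbers were not taken to pair samples: same-numbered libraries of different groups had a median correlation of -0.0047, and 6 of 20 libraries correlated best with their own number. With the replicate block, 0 genes passed in all 6 contrasts.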
